A study of Mus musculus with 7 samples.

Results

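Transcripts of the dynein motor that moves cargo along axons toward the cell body were examined in mouse dorsal root ganglia, which hold the cell bodies of sensory neurons, after a nerve injury. The 10 genes described here were the rows of the deposited table whose symbol was Dync1h1, Dync1i1, Dync1i2, Dync1li1, Dync1li2, Dctn1, Dctn2, Dctn4, Pafah1b1 or Ndel1, out of 54309 genes, and each symbol matched 1 row. RNA sequencing was done on 7 samples from C57bl/6 mice, labelled male and aged 6 to 8 weeks. All had a sciatic nerve injury at Zeitgeber time (ZT, hours after lights on) 20 (ZT20, 4 samples) or 8 (ZT8, 3 samples). Their lumbar ganglia were taken 72 h later, so injury and dissection fell at the same clock time in each group, and the series has no uninjured samples. Neurons were enriched from the dissociated ganglia on a density layer of albumin, and whether a sample came from 1 mouse or several is not given in the sources used here.

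Cytoplasmic dynein-1 is a motor that walks toward the minus ends of microtubules, which in an axon lie toward the cell body. It is built on a pair of heavy chains that hydrolyse ATP, with intermediate, light intermediate and light chains that hold cargo and partners. Dynactin, a second large complex, joins the motor to cargo and keeps it moving, while LIS1 (gene Pafah1b1) and NDEL1 regulate the motor. In sensory neurons this transport returns neurotrophin signals and, after a nerve injury, injury signals from the axon to the nucleus.

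Levels are given in TPM, a share of a sample's transcripts that is corrected for transcript length, so levels of different genes can be compared. Sequencing depth is unknown. The number of genes above 0 TPM was 24192 to 25238 at ZT20 and 18297 to 22973 at ZT8, where replicate 2 was the lowest. That library also stood apart from the others on the first principal component, at 86.1, with ZT8 replicates 1 and 3 at 21.4 and 25.8. All samples are labelled male, but ZT20 replicates 3 and 4 go against that label: the Y-linked genes Ddx3y, Eif2s3y and Uty were listed at 0 in both, and Xist, which is made from the inactive X chromosome of females, was at 2.21 and 2.30 TPM. ZT20 replicate 2 held both Ddx3y (11.7 TPM) and Xist (1.08 TPM), and in the other 4 samples Xist was at most 0.00467 TPM. Whether samples were pooled or exchanged is not given in the sources used here. The libraries of the groups carry identifiers of different form, numbers at ZT20 and letters at ZT8, and whatever lies behind that cannot be told apart from the clock time.

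All 10 genes were well expressed, and 5 of them were higher at ZT20: the heavy chain Dync1h1, the intermediate chain Dync1i2, both light intermediate chains and the dynactin subunit Dctn4. The other 5 (Dync1i1, Dctn1, Dctn2, Pafah1b1 and Ndel1) did not pass the test, and 0 of the 10 were lower. A gene passed where its adjusted p-value was under 0.05 in limma, fitted on log2(TPM + 1) to the 14800 genes whose mean reached 1 TPM. Of all genes tested, 12.8% were higher at ZT20 and 3.61% lower. The median log2 difference (ZT20 minus ZT8) was 0.53 over the 10 genes and 0.23 over all genes tested. The groups did not overlap, with ZT20 above, in those same 5 of the 10 genes and in 24.5% of all genes tested. Scaling the samples by the median of gene-wise ratios moved the median of all genes to 0.019, and then 1 of the 10 (Dync1h1) passed, with 7.35% of all genes higher and 8.47% lower. With single libraries left out, 2 of the 10 passed as higher without ZT20 replicate 1, 3 or 4 (6.39%, 3.67% and 4.67% of all genes), 3 without ZT8 replicate 3 (8.8%), 4 without ZT20 replicate 2 or ZT8 replicate 2 (9.45% and 16%) and 5 without ZT8 replicate 1 (12.4%). Without ZT20 replicates 3 and 4 together, which leaves 2 samples against 3, 0 of the 10 passed by limma, as did 0 of the 14800 genes, with 2425 genes at an unadjusted p-value under 0.05. The log2 differences of the 5 genes were then 1.39 (Dync1h1), 0.67 (Dctn4), 0.52 (Dync1li2), 0.47 (Dync1li1) and 0.44 (Dync1i2), beside 1.33, 0.65, 0.78, 0.50 and 0.50 in all samples.

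**Figure D1:**
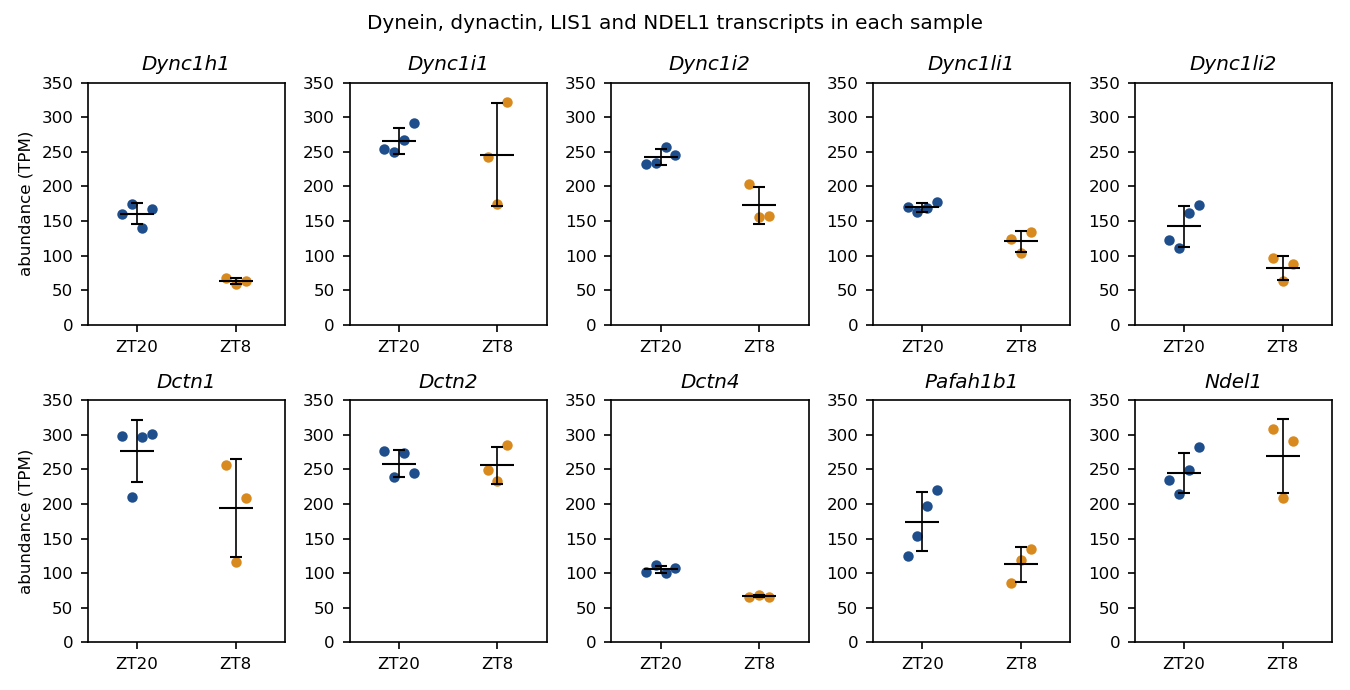
Abundance in TPM (vertical axis from 0) of each of the 10 genes in every sample. Points are samples (4 at ZT20 in blue, 3 at ZT8 in orange), the long dash is the group mean and the bar its SD. For Dync1h1 the ZT20 samples lie at 140 to 175 TPM and the ZT8 samples at 58.6 to 67.9 TPM, whereas the groups overlap for Dctn2 and Ndel1.

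The heavy chain Dync1h1 (ENSMUSG00000018707), the ATP-hydrolysing subunit of the motor, differed most among the 10 genes. In ZT20 replicates 1 to 4 its level was 161, 175, 140 and 167 TPM, and in ZT8 replicates 1 to 3 it was 67.9, 58.6 and 63.5 TPM; all lists of values below keep this order. Every ZT20 sample was thus above every ZT8 sample, and the spread within each group was small beside the gap. The ZT20 mean of 161 ± 14.8 TPM (SD, n = 4) was 2.54 times the ZT8 mean of 63.3 ± 4.67 TPM (SD, n = 3), and the log2 difference was 1.33 with a standard error of 0.12 and a limma adjusted p of 0.00193. It passed in all 7 fits that each left out 1 library, with differences of 1.27 to 1.39.

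Transcript length moved with the differences in this table, and Dync1h1 has one of the longer transcripts, at 14342 nt in GENCODE M21. Over 14745 genes of known length Spearman's rho between log2 difference and length was 0.410, as a description, since genes do not vary independently. Among the 1475 tested genes with the longest transcripts, a group that holds Dync1h1 and Pafah1b1, the median log2 difference was 0.69 and 36.5% of genes were higher at ZT20. A fit of length and GC content was then subtracted sample by sample, which left Dync1h1 with a difference of 0.49 (95% interval 0.21 to 0.77, limma adjusted p = 0.0451). In that fit 2 of the 10 genes passed, Dync1h1 and Dync1li1, both higher at ZT20, against 3.58% of all genes higher and 5.26% lower, with a median of -0.0083 over all genes. The heavy chain of ciliary dynein-2, Dync2h1, has a transcript of nearly the same length, 14264 nt. Dync2h1 is not matched to Dync1h1 in level or in GC content, which is 43.4% beside 53.7% for Dync1h1. It was at 3.10, 3.07, 3.96 and 6.47 TPM at ZT20 and at 3.37, 5.36 and 2.63 TPM at ZT8, and its log2 difference of 0.099 (95% interval -0.60 to 0.79) did not pass. This pair was chosen after its values were seen, so its ratio is given as a description, with no test. The ratio of Dync1h1 to Dync2h1 was 51.9, 56.8, 35.4 and 25.8 at ZT20 and 20.1, 10.9 and 24.2 at ZT8. The mean log2 ratio was higher by 1.23 at ZT20, by 1.12 after the length and GC correction and by 0.95 without ZT8 replicate 2. The correction moved both genes down, Dync1h1 to 0.49 and Dync2h1 to -0.63 (95% interval -1.25 to -0.016).

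**Figure D2:**
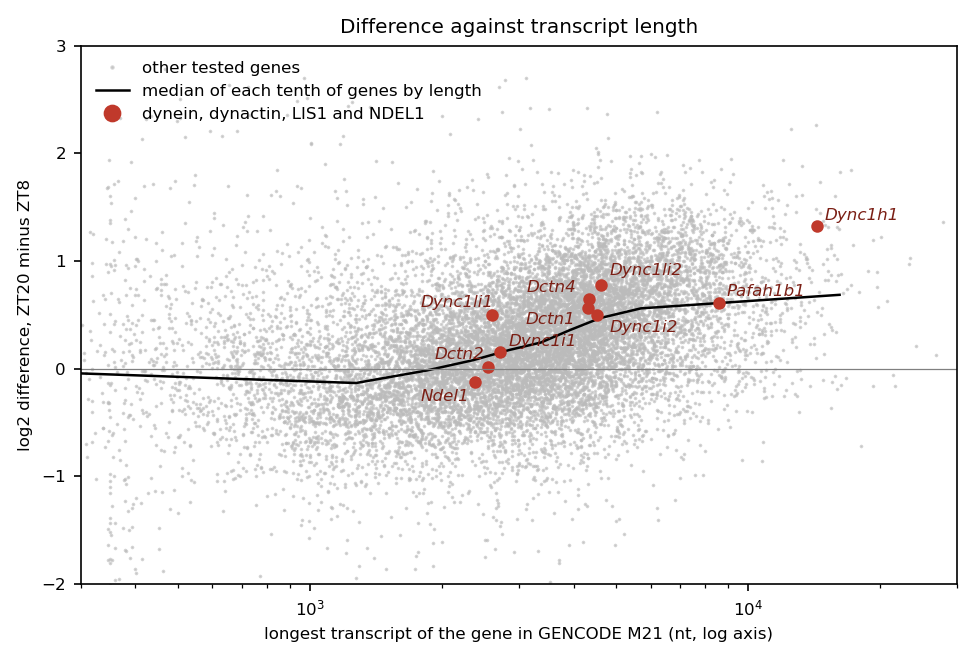
Log2 difference (ZT20 minus ZT8, vertical axis) against the longest annotated transcript in nt (log axis) for tested genes (grey, those beyond the axes not drawn) and the 10 genes (red). The black line joins the medians of the 10 groups of genes by length, from -0.028 in the shortest to 0.69 in the longest. Dync1h1 and Dync1li1 lie above the line, and Dync1i1 and Pafah1b1 lie near it.

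The promoter sequences of the heavy chain, of a light intermediate chain and of Ndel1 are shown because the first pair were higher at ZT20 also after the length correction and because Ndel1 alone held a clock motif. The 250 bases before the annotated start were searched on both strands for the E-box CACGTG, the D-box TTATGTAA or TTATGCAA, and TAGGTCA, the core of the RORE, which are bound by CLOCK and BMAL1, by PAR-bZIP factors such as DBP, and by ROR and REV-ERB. RefSeq sequences (build GRCm38.p6) were matched for 8 of the 10 genes, in 10 windows. The Dync1h1 window is chr12:110601145-110601394 (plus strand), that of Dync1li1 is chr9:114688581-114688830 (plus strand) and that of Ndel1 is chr11:68853136-68853385 (minus strand). Each is printed 5′ to 3′ on the strand of the gene, with a motif match in capitals.
Dync1h1: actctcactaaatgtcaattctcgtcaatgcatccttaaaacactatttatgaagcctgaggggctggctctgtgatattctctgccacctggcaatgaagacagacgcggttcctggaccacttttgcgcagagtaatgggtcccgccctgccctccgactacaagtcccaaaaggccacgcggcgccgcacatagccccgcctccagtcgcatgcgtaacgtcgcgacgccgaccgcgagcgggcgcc
Dync1li1: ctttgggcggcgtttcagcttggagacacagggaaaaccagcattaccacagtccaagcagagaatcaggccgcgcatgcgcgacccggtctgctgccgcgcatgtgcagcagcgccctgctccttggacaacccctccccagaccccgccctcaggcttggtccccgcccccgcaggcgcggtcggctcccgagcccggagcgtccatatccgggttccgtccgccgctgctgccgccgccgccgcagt
Ndel1: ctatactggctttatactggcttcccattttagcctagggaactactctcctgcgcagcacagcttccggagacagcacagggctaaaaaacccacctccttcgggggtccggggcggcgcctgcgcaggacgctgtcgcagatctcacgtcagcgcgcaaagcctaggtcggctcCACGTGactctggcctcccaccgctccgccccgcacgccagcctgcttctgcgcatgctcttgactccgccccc
The E-box of Ndel1 begins at position -74 before the start. In the other 9 windows these letters were not found. Over 32851 promoter windows of the same length, 6.02% held the E-box letters, 1.5% a D-box and 2.23% the RORE core.

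The intermediate chains hold dynactin and cargo, and Dync1i2 passed the test while Dync1i1 did not. Dync1i2 (ENSMUSG00000027012), which is made in most tissues, was at 232, 234, 257 and 246 TPM in the ZT20 samples and at 203, 156 and 158 TPM in the ZT8 samples. The groups did not overlap, and the log2 difference was 0.50 ± 0.12 (SE, limma adjusted p = 0.0312). The gene missed the threshold in 5 of the 7 fits that left out a library, those without ZT20 replicates 1, 2, 3 and 4 and without ZT8 replicate 3 (adjusted p = 0.0674, 0.0551, 0.101, 0.0898 and 0.0782), with differences of 0.43 to 0.62 in all 7. Its difference was 0.25 under median-ratio scaling (limma adjusted p = 0.156) and 0.15 after the length and GC correction (limma adjusted p = 0.374). Dync1i1 (ENSMUSG00000029757), the paralog enriched in neurons, was at 254, 250, 267 and 292 TPM at ZT20 and at 242, 174 and 322 TPM at ZT8. Its ZT8 samples spread on both sides of the ZT20 samples, and the log2 difference of 0.15 (95% interval -0.28 to 0.59) did not pass (limma adjusted p = 0.596). The sign turned to -0.10 under median-ratio scaling, -0.032 after the length and GC correction and -0.072 without ZT8 replicate 2.

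The light intermediate chains link the motor to adaptors and were both higher at ZT20. Dync1li1 (ENSMUSG00000032435) was at 170, 163, 169 and 178 TPM at ZT20 and at 125, 104 and 134 TPM at ZT8. No samples overlapped, and the log2 difference was 0.50 ± 0.12 (SE, limma adjusted p = 0.0270). After the length and GC correction it was 0.38 (limma adjusted p = 0.0403), and under median-ratio scaling 0.25 (limma adjusted p = 0.147). Dync1li1 missed the threshold without ZT20 replicate 1, 3 or 4 (limma adjusted p = 0.0689, 0.0837 and 0.0843). Dync1li2 (ENSMUSG00000035770) was at 122, 112, 162 and 173 TPM at ZT20 and at 96.1, 63.0 and 88.4 TPM at ZT8. The groups again did not overlap, though ZT20 replicate 2 and ZT8 replicate 1 lay close together. The log2 difference was 0.78 ± 0.21 (SE, limma adjusted p = 0.0360), and it was 0.53 under median-ratio scaling (limma adjusted p = 0.0655) and 0.35 after the length and GC correction (limma adjusted p = 0.196). Dync1li2 missed the threshold without ZT20 replicates 1, 3 and 4 and without ZT8 replicates 2 and 3, left out 1 at a time (limma adjusted p = 0.0632, 0.109, 0.102, 0.0664 and 0.0645).

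Among the dynactin subunits Dctn4 was higher at ZT20 and Dctn1 and Dctn2 did not pass. Dctn4 (ENSMUSG00000024603), which encodes p62 at the pointed end of the dynactin filament, was at 101, 112, 101 and 107 TPM at ZT20 and at 65.7, 68.4 and 66.0 TPM at ZT8. Its samples lay closest together among the 10 genes at ZT8, with a coefficient of variation of 2.20%, and the groups did not overlap. Dctn4 differed by 0.65 ± 0.11 on the log2 scale (SE, limma adjusted p = 0.00836). It passed in all 7 fits that left out a library, with differences of 0.62 to 0.67. Under median-ratio scaling the difference of Dctn4 was 0.40 (limma adjusted p = 0.0536), and after the length and GC correction it was 0.33 (limma adjusted p = 0.0793).

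Dctn1 (ENSMUSG00000031865), which encodes p150Glued, the arm that binds microtubules and the intermediate chain, was at 297, 210, 296 and 301 TPM at ZT20 and at 255, 116 and 209 TPM at ZT8. Each group held 1 low sample, replicate 2 in both, and the groups overlapped. The log2 difference of 0.57 (95% interval -0.026 to 1.16) did not pass (limma adjusted p = 0.160), and it was 0.24 without ZT8 replicate 2 and 0.046 after the length and GC correction. Dctn2 (ENSMUSG00000025410), which encodes dynamitin of the shoulder that joins the arm to the filament, was at 276, 239, 273 and 244 TPM at ZT20 and at 249, 234 and 286 TPM at ZT8. The samples of the groups were interleaved, with a log2 difference of 0.014 (95% interval -0.25 to 0.28, limma adjusted p = 0.943) that turned to -0.24 under median-ratio scaling and -0.050 without ZT8 replicate 2.

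The regulators LIS1 and NDEL1 bind each other and the motor, and neither gene passed the test as reported. Pafah1b1 (ENSMUSG00000020745, LIS1) was at 125, 154, 197 and 220 TPM at ZT20 and at 85.5, 119 and 134 TPM at ZT8. The ZT20 samples varied widely, with a coefficient of variation of 24.5%, and ZT20 replicate 1 lay within the ZT8 range. The log2 difference was 0.61 (95% interval 0.099 to 1.13, limma adjusted p = 0.0939), and 0.016 after the length and GC correction (transcript of 8570 nt). With array weights, which give libraries unequal weight in the fit, it was 0.81 and passed (limma adjusted p = 0.0372), so that 6 of the 10 genes were higher, beside 20.1% of all genes. Ndel1 (ENSMUSG00000018736) was at 235, 214, 249 and 282 TPM at ZT20 and at 309, 208 and 291 TPM at ZT8. It was the only one of the 10 genes with a negative log2 difference, -0.12 (95% interval -0.49 to 0.25), which did not pass (limma adjusted p = 0.615) and was -0.37 under median-ratio scaling (limma adjusted p = 0.0898).

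**Figure D3:**
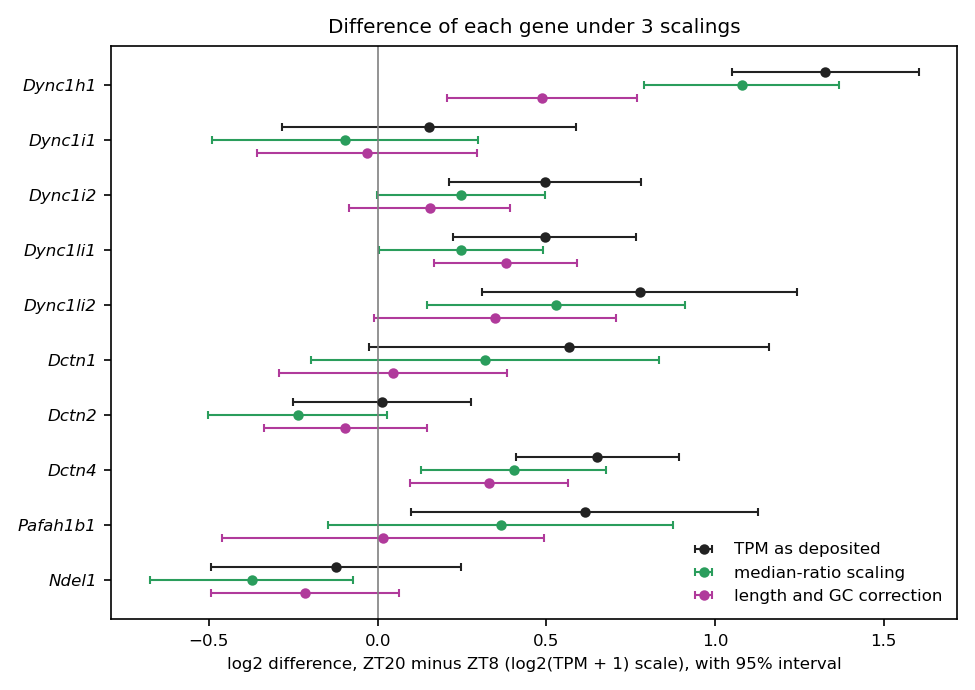
Log2 difference (ZT20 minus ZT8) with its 95% interval for each of the 10 genes from the values as deposited (black), after median-ratio scaling (green) and after correction for length and GC content (purple). The interval of Dync1h1 lies above 0 in all 3, and its difference falls from 1.33 to 1.08 and 0.49.

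The order of the mean levels differed between the groups. At ZT20 it ran from Dctn1 (276 TPM) over Dync1i1 (266), Dctn2 (258), Ndel1 (245) and Dync1i2 (242) to Pafah1b1 (174), Dync1li1 (170), Dync1h1 (161), Dync1li2 (142) and Dctn4 (105), as group means in TPM. The first 5 overlapped one another in their samples, as did Pafah1b1 with the light intermediate chains and the heavy chain. At ZT8 Ndel1 had the highest mean (270 TPM) and Dync1h1 the lowest (63.3 TPM), below Dctn4 (66.7 TPM), although the samples of these last genes overlapped. The ZT8 samples of Ndel1 (208 to 309 TPM) also overlapped those of Dctn2 (234 to 286 TPM), Dync1i1 (174 to 322 TPM) and Dctn1 (116 to 255 TPM). The summed TPM of the 10 genes was 1973, 1861, 2112 and 2211 at ZT20 and 1698, 1302 and 1752 at ZT8. ZT8 replicate 2 was the lowest of all 7 samples for 8 of the 10 genes, and within ZT20 replicate 2 was the lowest for 6 and replicate 4 the highest for 6.

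Ratios within a sample do not depend on the scaling between samples, so the log2 ratios of TPM + 1 of 5 pairs of partner genes were compared (two-sided exact permutation tests). Dync1h1 to Dync1i2 was 0.694, 0.747, 0.546 and 0.679 at ZT20 and 0.334, 0.375 and 0.402 at ZT8. All ZT20 samples were above all ZT8 samples, with a difference of 0.83 in the log2 ratio (exact p = 0.0286, the smallest possible, adjusted p = 0.107 over 5 ratios). After the length and GC correction that difference was 0.33 (exact p = 0.0857). The ratio of the neuronal to the widespread intermediate chain, Dync1i1 to Dync1i2, was 1.10, 1.07, 1.04 and 1.19 at ZT20 and 1.19, 1.12 and 2.04 at ZT8. ZT8 replicate 3 stood high, the other ZT8 samples lay close to the ZT20 range, and the log2 ratio differed by -0.34 (exact p = 0.0571, adjusted p = 0.107). Without ZT8 replicate 3 that difference was -0.070.

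The remaining ratios overlapped between the groups. Dync1li1 to Dync1li2 was 1.39, 1.46, 1.04 and 1.03 at ZT20 and 1.30, 1.65 and 1.51 at ZT8, a difference of -0.28 in the log2 ratio (exact p = 0.229, adjusted p = 0.229). Its sign turned after the length and GC correction (0.031). The Dctn1 to Dctn2 ratio was 1.08, 0.877, 1.08 and 1.23 at ZT20 and 1.03, 0.498 and 0.732 at ZT8, with a difference of 0.55 in the log2 ratio (exact p = 0.0857, adjusted p = 0.107) and 0.29 without ZT8 replicate 2. The Ndel1 to Pafah1b1 ratio was 1.88, 1.39, 1.26 and 1.28 at ZT20 and 3.61, 1.76 and 2.17 at ZT8, with a difference of -0.74 in the log2 ratio (exact p = 0.0857, adjusted p = 0.107) and -0.44 without ZT8 replicate 1. Over the 5 ratios 0 passed after adjustment, by the exact test, and 1 had an unadjusted p-value under 0.05.

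**Figure D4:**
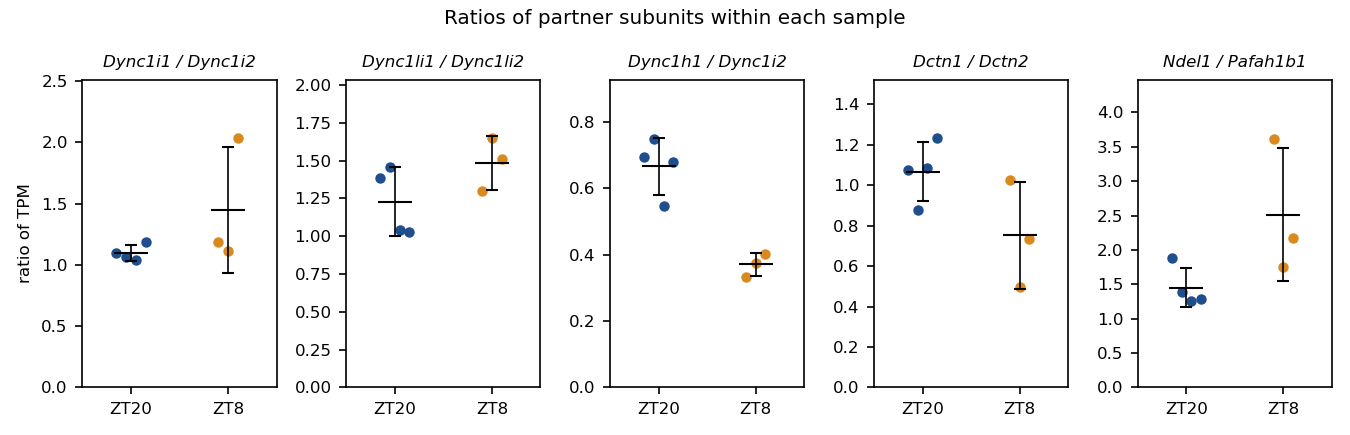
Ratio of TPM (vertical axes from 0, each with its own scale) of 5 pairs of partner genes in every sample, with 4 samples at ZT20 in blue, 3 at ZT8 in orange, the mean as a long dash and the SD as a bar. Only the ratio of Dync1h1 to Dync1i2 separates the groups in these 5 panels, at 0.546 to 0.747 against 0.334 to 0.402.

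None of the remaining light chains and dynactin subunits passed as higher or lower. Of 9 further light-chain genes 8 were tested, and 0 passed by limma (1 had an unadjusted p-value under 0.05), with a median log2 difference of 0.035. Of all 14800 genes 5122 had such an unadjusted p-value, and 12.8% passed as higher and 3.61% as lower. Dynll1, an LC8 chain, was at 486 to 688 TPM at ZT20 and 483 to 606 TPM at ZT8, with a log2 difference of 0.16 (limma adjusted p = 0.462). Dynlrb1, a roadblock chain, differed by 0.19, Dynll2 by 0.069 and Dynlt1a by 0.64, each with overlapping groups. Both Dynll1 and Dynlrb1 turned negative under median-ratio scaling (-0.091 and -0.060), as did Dynll2 (-0.18). The Tctex-type chain Dynlt3 was at 350 to 400 TPM at ZT20 and 421 to 470 TPM at ZT8, groups that did not overlap, with a log2 difference of -0.25 that did not pass (limma adjusted p = 0.124). Under median-ratio scaling Dynlt3 passed as lower, at -0.50 (limma adjusted p = 0.0217). Dynlt1b (-0.013), Dynlt1c (0.0013) and Dynlt1f (0.00074) are near-identical copies with Dynlt1a, so the split of reads among them is uncertain.

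Dynactin has further subunits in its shoulder, its actin-like filament and the filament's ends, and of 9 such genes 0 passed by limma, with 2 at an unadjusted p-value under 0.05 and a median log2 difference of 0.045. Dctn3, the small p24 subunit of the shoulder, was at 574.6 to 681 TPM at ZT20 and 734 to 1096 TPM at ZT8, and the log2 difference of -0.48 did not pass (limma adjusted p = 0.0616). The same gene passed as lower under median-ratio scaling (-0.73, limma adjusted p = 0.0357), with array weights (-0.42, limma adjusted p = 0.0288) and without ZT8 replicate 3 (-0.61, limma adjusted p = 0.0445). Capza2, a subunit of the cap at the barbed end, differed by -0.23 without overlap (limma adjusted p = 0.138), and by -0.48 under median-ratio scaling (limma adjusted p = 0.0188) and -0.42 after the length and GC correction (limma adjusted p = 0.0332). The filament subunits Actr1a and Actr1b differed by 0.35 and 0.35, and the pointed-end subunits Dctn5, Dctn6 and Actr10 by 0.057, 0.17 and -0.19. Capza1 and Capzb differed by 0.045 and -0.061. In each of these last 7 genes the groups overlapped.

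Several adaptors, which hold dynein and dynactin together on a given cargo, were higher at ZT20. Of 21 adaptors and regulators 19 were tested, 8 were higher and 0 lower, with a median log2 difference of 0.72, where 12.8% of all genes tested were higher. Under median-ratio scaling 4 of the 19 were higher, where 7.35% of all genes were. Of the 8, 7 have transcripts of 5363 to 10443 nt; among all tested genes 27.2% of those of 5001 to 6488 nt and 36.5% of those of 6491 nt or more were higher at ZT20. After the length and GC correction 3 of the 19 were higher (Rab11fip3, Spag9 and Nudc, a chaperone gene named after its values were seen), beside 3.58% of all genes, with a median of 0.46. Among the 8 called adaptors Rab11fip3, Trak2, Spag9, Trak1 and Mapk8ip3 differed most on the log2(TPM + 1) scale, with transcripts of 5363 to 7340 nt. By the ratio of group means Nin, another of the 8, stood at 2.34, above Trak1 (2.02) and Mapk8ip3 (1.85). Rab11fip3, an adaptor of recycling endosomes, was at 5.53, 3.76, 4.50 and 4.39 TPM at ZT20 and at 0.60, 0.545 and 0.119 TPM at ZT8, a log2 difference of 1.97 (limma adjusted p = 0.00394), and 1.36 after the length and GC correction (limma adjusted p = 0.0231). Spag9 (JIP4), a scaffold of lysosome transport, was at 27.5, 27.5, 30.1 and 29.9 TPM at ZT20 and at 11.9, 12.1 and 12.7 TPM at ZT8, a log2 difference of 1.17 (limma adjusted p = 0.00310), and 0.57 after the correction (limma adjusted p = 0.0315). In these genes the gap between the groups was larger than the range within either.

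The mitochondrial adaptors Trak2 and Trak1 differed by 1.22 (limma adjusted p = 0.00714) and 1.07 (limma adjusted p = 0.0463). Mapk8ip3 (JIP3), which carries JNK injury signals on the motor, was at 119, 93.8, 132 and 134 TPM at ZT20 and at 81.4, 48.0 and 64.7 TPM at ZT8, a log2 difference of 0.89 (limma adjusted p = 0.0218). After the length and GC correction Trak2, Trak1 and Mapk8ip3 differed by 0.64, 0.48 and 0.16 and did not pass (limma adjusted p = 0.0511, 0.193 and 0.429). Rab11fip3, Spag9 and Trak2 passed in all 7 fits that left out a library. Trak1 missed the threshold without each of ZT20 replicates 1 to 4 and ZT8 replicate 3 (limma adjusted p up to 0.127), and Mapk8ip3 without ZT20 replicates 1, 3 and 4 and ZT8 replicate 3 (up to 0.0761).

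Cargo receptors and injury signals known to travel with dynein were listed as 16 genes, all tested, of which 5 were higher at ZT20 and 0 lower, with a median log2 difference of 0.30, beside 12.8% higher among all genes tested. Under median-ratio scaling 1 of the 16 was higher, beside 7.35% of all genes. Kpnb1, importin beta, which ties injury signals to dynein in lesioned axons, was at 49.6, 52.1, 53.6 and 59.6 TPM at ZT20 and at 20.4, 18.5 and 20.5 TPM at ZT8. The groups were far apart, with a log2 difference of 1.39 ± 0.13 (SE, limma adjusted p = 0.00193), and 0.83 after the length and GC correction (limma adjusted p = 0.00934). It passed in all 7 fits that left out a library. The importin alpha genes Kpna1 and Kpna6, the transcription factor Stat3 and the neurotrophin-3 receptor Ntrk3 differed by 0.58, 0.88, 0.60 and 0.76 (limma adjusted p = 0.0414, 0.0438, 0.0376 and 0.0260). After the correction they differed by 0.16, 0.32, -0.0092 and 0.012 and did not pass (limma adjusted p = 0.481, 0.340, 0.970 and 0.977). In that corrected fit 1 gene of the list was higher (Kpnb1) and 1 lower, the BDNF receptor Ntrk2 (8744 nt), which differed by -0.78 (limma adjusted p = 0.0311) and by -0.085 without the correction, beside 3.58% of all genes higher and 5.26% lower; Ntrk2 is named for this call, after its values were seen. Leaving out single libraries also ended these calls: ZT20 replicates 1, 3 and 4 for all 4 genes, ZT20 replicate 2 for Stat3, ZT8 replicate 1 for Kpna1, ZT8 replicate 2 for Kpna6 and Stat3, and ZT8 replicate 3 for Kpna1, Kpna6 and Stat3 (limma adjusted p up to 0.134). Of the 5 genes of ciliary dynein-2, all tested, 0 passed by limma (1 at an unadjusted p-value under 0.05), and their median log2 difference was -0.17. Under median-ratio scaling that median was -0.40 and 1 passed as lower, beside 8.47% of all genes. This was Dynlt2b, a light chain named after its values were seen (-0.73, limma adjusted p = 0.0356).

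**Figure D5:**
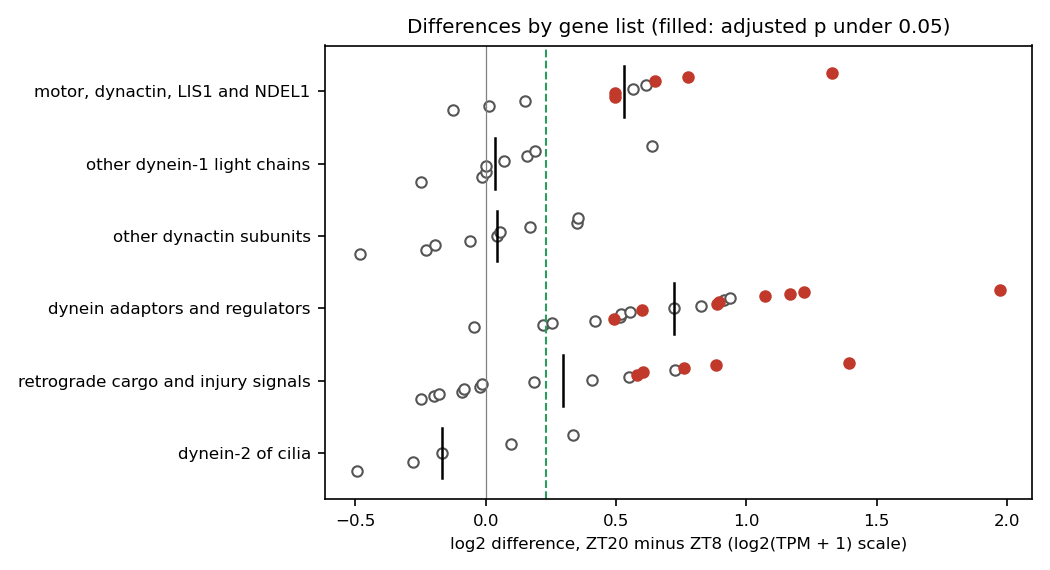
Log2 difference (ZT20 minus ZT8) of every tested gene in 6 lists, 1 row per list; filled points have a limma adjusted p-value under 0.05, short black lines are list medians and the green dashed line is the median of all genes tested, 0.23. Filled points occur among the 10 genes (5), the adaptors (8) and the cargo list (5), all to the right of the green line.

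Genes whose profile over the 7 libraries was most like that of Dync1h1 were ranked by Pearson's r of log2(TPM + 1) over 10258 other genes (mean of 5 TPM or more), as a description. Among the highest were Bod1l (r = 0.996), Ubr3 (0.996), Klf7 (0.995) and Hipk1 (0.994), each over the same 7 libraries, whose depth and standing-apart samples all genes share. Their longest transcripts measured 7662 to 10540 nt. Among the other 9 genes of the motor and its partners, r with Dync1h1 over the 7 samples was 0.988 for Dctn4, 0.929 for Dync1li1, 0.896 for Dync1i2 and 0.816 for Dync1li2, and was lowest for Ndel1 (-0.25). Each r spans both groups and so takes in the difference between them. Dctn4, Dync1li1, Dync1i2 and Dync1li2 were also the other genes called higher at ZT20. Whether the genes vary together within a group was not tested.

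Markers of other cell types also differed between the groups, and in bulk samples fewer cells of a type and less RNA per cell cannot be told apart. The summed level of 12 sensory neuron markers was 18029 to 23159 TPM at ZT20 and 13924 to 21548 TPM at ZT8. Of the 12, 3 were higher at ZT20 (Nefh, Scn9a and Scn10a), where 12.8% of all genes were higher and 3.61% lower. After the length and GC correction 1 of the 12 was higher (Nefh), beside 3.58% of all genes. Scn9a (9840 nt) and Scn10a (6692 nt) then did not pass (limma adjusted p = 0.366 and 0.526). The summed level of 7 satellite glia markers was 7060 to 8563 TPM at ZT20 and 11873 to 14588 TPM at ZT8, without overlap, and 2 of the 7 were lower at ZT20 (Fabp7 and Apoe). Most of that sum was Apoe (6261 to 7615 TPM at ZT20 and 10623 to 13557 TPM at ZT8), and the 5 markers that did not pass overlapped between the groups. Of these 5, Kcnj10 and Cdh19 had positive log2 differences (0.21 and 0.38) and Glul, Ednrb and Sox10 negative ones. After the length and GC correction 2 of the 7 were lower (Apoe and Ednrb), beside 5.26% of all genes. Fabp7 then did not pass (limma adjusted p = 0.0692). The 6 Schwann cell markers summed to 1615 to 1965 TPM and 1899 to 2304 TPM, with 1 lower. Macrophage markers (8 genes, 1 lower) summed to 338 to 684 TPM and 362 to 834 TPM. The 5 markers of B and plasma cells summed to 11.0 to 193 TPM at ZT20 and 219 to 616 TPM at ZT8, with 1 lower (Mzb1, listed at 0 in ZT20 replicate 4). Most of that sum was the plasma cell gene Jchain, which did not pass (limma adjusted p = 0.102), and the B cell genes Cd79a, Cd79b and Ms4a1 overlapped between the groups. Fibroblast markers (5 genes) summed to 77.7 to 108 TPM and 84.0 to 197 TPM, endothelial markers (4 genes) to 2.84 to 4.43 TPM and 0.680 to 3.92 TPM, and hemoglobin genes (4) to 2366 to 6662 TPM and 949 to 9523 TPM. With the neuronal minus glial marker score as a covariate, the 5 called genes differed by 1.38 (Dync1h1), 0.76 (Dctn4), 0.65 (Dync1li2), 0.54 (Dync1i2) and 0.32 (Dync1li1), with limma adjusted p-values of 0.0735 to 0.549, and 0 of the 14800 genes passed by limma (2017 at an unadjusted p-value under 0.05). The part of these cell types in the differences was otherwise not tested.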

How the data were processed

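RNA was sequenced from 7 samples of injured lumbar ganglia, grouped by sample title. The authors deposited a table in TPM, 1 column per sample. The submitters' processing notes name FastQC 0.11.9, Trim Galore 0.6.6, Salmon 1.6.0, DESeq2 1.34.0 and the build GRCm39; their roles, the annotation and any scaling between samples are not given in the sources used here. TPM carries no depth, and every value is relative to the rest of its sample.

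Values were analysed as log2(TPM + 1), which understates differences of low genes. The 14800 genes with mean TPM of 1 or more were fitted with limma 3.58.1 (R 4.3.3, intensity trend, no covariates), two-sided, with Benjamini-Hochberg adjustment over all of them. P-values measure the spread between these samples, and the labels do not say that these are separate animals. On simulated data for this comparison (14800 genes, 200 changed by 1.5 on the log2 scale) 62.5% of changed genes were called and 3.85% of calls were false. Length and GC content came from the longest GENCODE M21 transcript, known for 99.6% of tested genes, and their trend was removed per sample by loess (span 0.3). Dync1h1, Dync1i1, Dync1li2 and Dctn1 overlap other genes on the opposite strand in that annotation, whose highest value was 4.98 TPM.

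The genes, the lists and the tests were chosen with earlier results of these data known. Named were the 10 genes, the tested light chains and dynactin subunits, up to 5 called genes per direction in each other list, and the 5 genes most like Dync1h1, of which 1 is not reported here. Replicate numbers occur in both groups, but same-numbered samples deviated together with r = -0.014, 0.15 and 0.083, so they were not taken as pairs. Alternatives were another pseudocount (0.1), filter (none, or 5 TPM) or scaling, the length and GC correction, the replicate block, array weights, a fit without intensity trend, a marker score as covariate and samples left out. Figures were drawn with matplotlib 3.10.9.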

Additional observations from a re-analysis of the deposited data

Results flagged for a closer look

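Within ZT20, 3 of 47 reported genes and ratios had 1 sample far from the other 3: its gap to the nearest of them, as a share of the group's whole range on the log2 scale, was above Dixon's 95% critical value. Chance gives about 1 in 20, or 2.35 of 47. For Dctn1 that share was 0.957, since replicate 2 held 210 TPM while the other replicates ranged from 296 to 301 TPM. For Dctn5 it was 0.888, also through replicate 2 (278 TPM beside 257 to 259 TPM). For Hipk1 it was 0.889, through replicate 3 (9.28 TPM beside 10.8 to 11.0 TPM). The ZT8 group, with 3 samples, was not examined in this way.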

How the results depend on the processing

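For the changes given here the cause was not tested. Of the 10 genes, 5 were higher at ZT20 as reported. Without a filter 2 were (of 31897 genes tested, 978 or 3.07% were higher and 200 or 0.627% lower). Under median-ratio scaling 1 was (all genes: 1088 or 7.35% higher, 1254 or 8.47% lower), and with the replicate block 2 (891 or 6.02% higher, 283 or 1.91% lower). After the length and GC correction 2 were (528 or 3.58% higher, 776 or 5.26% lower), and without the intensity trend 2 (1865 or 12.6% higher, 332 or 2.24% lower). By limma 0 of the 10 passed with the replicate block and the correction together (231 higher, 289 lower), with the marker score, or without ZT20 samples 3 and 4, and the last 2 settings left 0 of all genes. Quantile normalization gave 1023 higher and 814 lower genes and array weights 2982 higher and 917 lower. The 5 other lists held 57 tested genes, of which 13 were higher at ZT20 as reported and 0 lower, beside 12.8% and 3.61% of all genes. These pathway genes gave 5 and 0 without a filter, 5 and 4 under median-ratio scaling and 6 and 0 with the block. They gave 4 and 2 after the correction and 1 and 1 with block and correction (1.57% and 1.96% of all genes). With the marker score or without ZT20 samples 3 and 4 both counts were 0. Quantile normalization gave 1 lower (5.5% of all genes) and array weights 1 (6.2%). Leaving out 1 library at a time gave 2 to 5 of the 10 genes, 4 to 13 pathway genes higher and 0 to 1 lower, and 543 to 2374 genes higher and 81 to 681 lower overall. The replicate numbers share no animal in the labels, and the block leaves few degrees of freedom. No ZT8 sample carries the number of ZT20 replicate 4, so that library does not enter the blocked difference.

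The log2 ratio of Dync1h1 to Dync1i2 differed by 0.33 after the correction. It differed by 0.95 without ZT20 samples 3 and 4 and by 0.76 to 0.92 with 1 library left out, sample numbers at which the exact test cannot reach 0.05. The ratio of Dync1li1 to Dync1li2 turned to 0.031 after the correction.

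Some log2 differences that did not pass as reported turned sign. Under median-ratio scaling these were Capza1 (-0.20), Dctn2 (-0.24), Dctn5 (-0.19), Dctn6 (-0.078), Dync1i1 (-0.10), Dynll1 (-0.091), Dynll2 (-0.18), Dynlrb1 (-0.060), Dynlt1c (-0.19) and Dynlt1f (-0.24). After the length and GC correction they were Capza1 (-0.12), Dctn2 (-0.10), Dctn5 (-0.036), Dync1i1 (-0.032), Dynll2 (-0.083), Dynlt1b (0.10), Dynlt1c (-0.22) and Dynlt1f (-0.27), and Stat3, which had passed, stood at -0.0092. With the replicate block as well they were Capza1 (-0.14), Dctn2 (-0.063), Dctn5 (-0.024), Dync1i1 (-0.064), Dynll2 (-0.25), Dynlt1b (0.15), Dynlt1c (-0.13), Dynlt1f (-0.081) and Pafah1b1 (-0.082), and of those that had passed Ntrk3 (-0.081) and Stat3 (-0.052). Quantile normalization turned Capzb (0.042), Dynlt1c (-0.30) and Dynlt1f (-0.20). The marker score turned Dctn2 (-0.28), Dctn6 (-0.10), Dync1i1 (-0.25), Dynll1 (-0.27), Dynlrb1 (-0.094), Dynlt1a (-0.014) and Dynlt1b (0.53). The block without the correction turned Dynll2 (-0.11) and Dynlt1b (0.094), the same values as without ZT20 replicate 4. Leaving out ZT20 samples 3 and 4 turned Dynll2 (-0.52) and Dynlt1b (0.24), and array weights turned Dynlt1b (0.11). With 1 library left out the range crossed 0 for Actr10 (-0.47 to 0.080), Capza1 (-0.013 to 0.13), Capzb (-0.16 to 0.034), Dctn2 (-0.050 to 0.094), Dync1i1 (-0.072 to 0.37), Dynll2 (-0.19 to 0.46), Dynlt1b (-0.40 to 0.33), Dynlt1c (-0.18 to 0.19) and Dynlt1f (-0.40 to 0.41).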
